A study of Homo sapiens with 6 samples.

Results

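Interferon-stimulated effector genes are the genes through which a cell answers type I interferon. They are described here in MDA-MB-231 cells, a human TNBC line with a mesenchymal phenotype, after silencing of the kinase NEK2. A list of 45 such genes was matched by symbol to the gene table, and 42 had a row among the 74852 rows of the table. OAS1, OAS2 and OAS3 were not analysed here. With a minimum of 10 normalized counts on average, 41 of the 42 rows were tested within the 18717 genes that reached it, and CMPK2 was not. The rows of IRF9, GBP2 and TRIM22 also carry the symbols RNF31, GBP7 and OR56B1, so that their reads cannot be assigned to the member alone.

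The 6 libraries come from polyA-enriched RNA of cells transfected by lipofection with control siRNAs (si-CTRL, n = 3) or with siRNAs that target NEK2 (si-NEK2, n = 3), each a pool. According to the sample records, the cells were collected 24 h after the second of repeated transfections, while the methods of the study name a longer interval after transfection. Each group rests on 1 cell line and 1 siRNA pool, so that loss of NEK2 and other effects of the pool cannot be told apart. No untransfected culture was analysed here. Nothing in the records says that replicates were separate experiments, so that the p-values measure the spread between these libraries.

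Interferons alpha and beta bind the receptor IFNAR1/IFNAR2, and the kinases JAK1 and TYK2 then activate the complex ISGF3. It contains STAT2 and IRF9 and binds the interferon-stimulated response element (ISRE) in the promoters of its target genes. The targets block viruses at entry, transcription, translation or assembly. Double-stranded RNA is a known inducer of such genes, directly and through interferon beta, and cells of both groups received double-stranded siRNA.

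Depth and identity of the libraries were examined first. The recovered reads per library ranged from 52625492 to 87454509, and 1 read was worth between 0.818 and 1.25 normalized counts. NEK2 itself fell from 3438 ± 229 to 345 ± 54.4 normalized counts (SD, n = 3), so that 10.0% remained. Of 5 mesenchymal markers of the line 3 were past the thresholds defined below, with log2 fold changes of 0.66 (CDH2), -0.82 (ZEB1) and -0.76 (CD44), and VIM (-0.18) and AXL (-0.20) were not. CDH2 was short of them at 0.53 and 0.52 with equal total and quantile scaling, and CD44 at -0.58 without si-CTRL replicate 1. Of the receptors that TNBC lacks, PGR had at most 2 reads in any library, ESR1 had 8.22 ± 6.67 in si-CTRL and 5.69 ± 2.55 in si-NEK2 and ERBB2 had 2822 ± 544 in si-CTRL and 4019.7 ± 80.8 in si-NEK2 normalized counts (SD, n = 3), where ERBB2 had a log2 fold change of 0.53, under 1.5-fold, and of 0.68 without si-CTRL replicate 1. Markers of cells that could bring in interferon transcripts were scarce. The 8 leukocyte markers summed to between 87.2 and 143.7 normalized counts per library in si-CTRL and to between 72.6 and 85.9 in si-NEK2, with MS4A1 at 0, and 2 of the 8 (ITGAM and NCAM1) passed both thresholds downward, ITGAM not without si-CTRL replicate 1 (-0.48) or si-NEK2 replicate 2 (-0.66) nor with quantile scaling (-0.51). The 3 markers of plasmacytoid dendritic cells were at 0 in all libraries. The 3 endothelial markers summed to between 49.4 and 76.2 in si-CTRL and to between 28.9 and 39.5 in si-NEK2, and 1 of them, CDH5, passed both thresholds downward. The part of these transcripts in the results was not tested.

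A small set of interferon-stimulated genes fell after NEK2 silencing, while most of the list, including its most abundant members, did not pass the thresholds. The genes that fell were RSAD2, IFI44L, MX2, XAF1, MX1, IFI44, ISG20, TRIM22 and GBP1, and the row of GBP2 rose. Regulated means here that limma on log2(normalized count + 1) gave a p-value up to 0.05 with a 1.5-fold or larger difference, the thresholds of the study. By this rule 10 of 41 members (24.4%) were regulated, against 22.5% of all genes tested, so that the share of regulated members was near that of the whole transcriptome. Of the members, 9 (22.0%) were regulated downward, against 14.3% of all genes, and 1 (2.44%) upward, against 8.23%. These shares are a description of the list and no test was made of it.

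Among smaller differences (limma p of at most 0.05, fold change under 1.5), 8 members (19.5%) were lower and 2 (4.88%) higher. Over all genes these shares were 10.7% and 17.8%. The values that follow cover all 41 tested members, the regulated ones included. The median log2 fold change of the 41 members was -0.19, beside 0.012 over all genes tested, and 32 members (78.0%) had a negative value, against 49.0% of all genes. An adjusted p of at most 0.05 (limma, Benjamini-Hochberg over all genes) was reached by 18 members (43.9%), against 43.1% of all genes. By direction, 15 members (36.6%) were lower and 3 (7.32%) higher, against 21.3% and 21.8% of all genes. The groups did not overlap for 22 members (53.7%), against 55.0% of all genes. Of these, 18 (43.9%) were lower and 4 (9.76%) higher, against 26.9% and 28.2% of all genes. Both totals over members were near the share of all genes, while their split by direction lay further on the lower side, which was not tested.

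**Figure D1:**
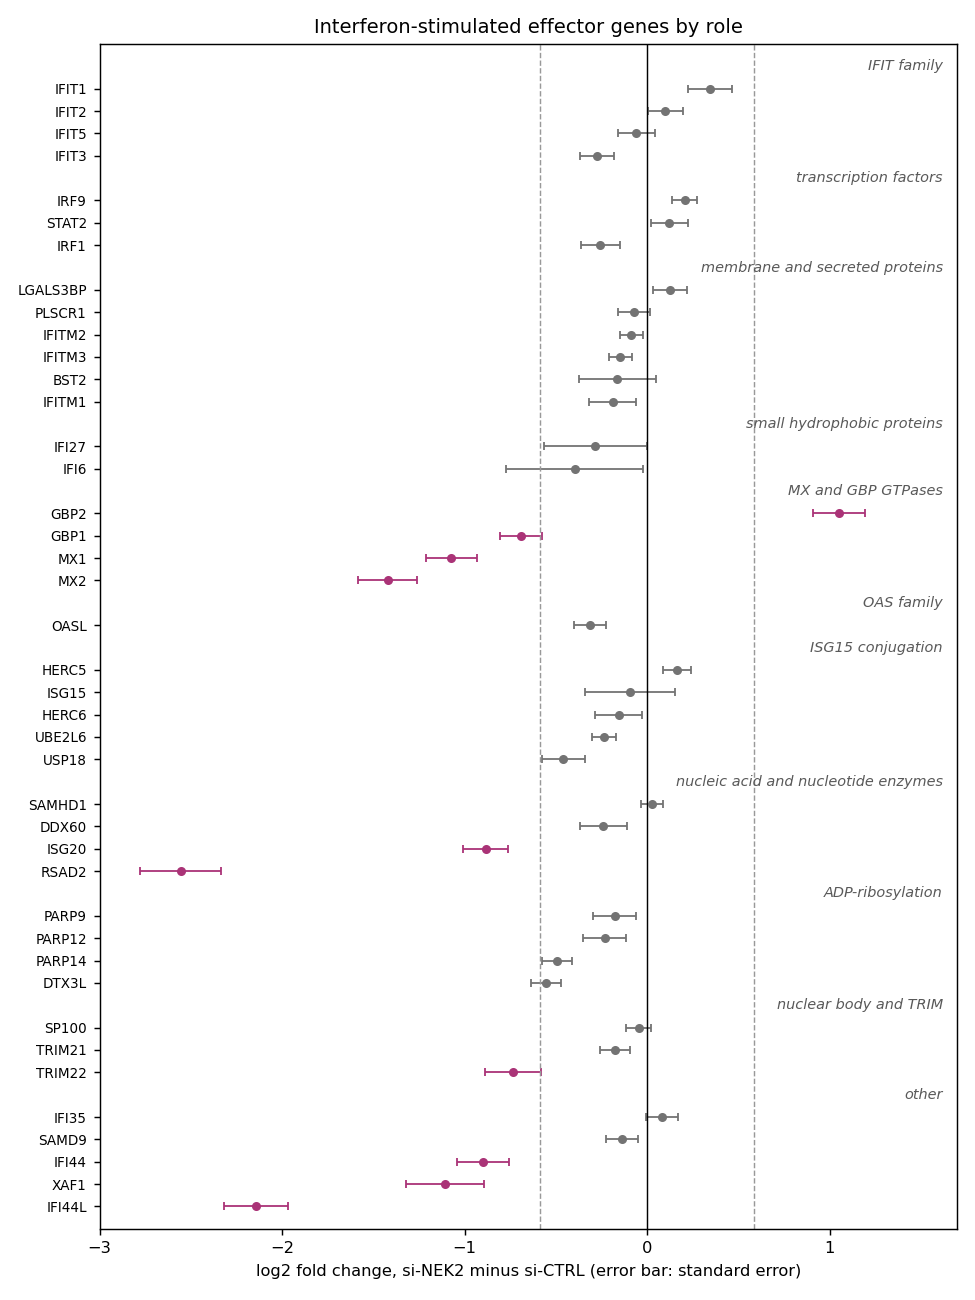
The log2 fold change of each of the 41 tested members (x axis, si-NEK2 minus si-CTRL, with its standard error) is grouped by role, with dashed lines at a fold change of 1.5 and members past both thresholds in purple. RSAD2 (-2.56) and IFI44L (-2.14) lie far to the left, GBP2 (1.05) is the 1 regulated member to the right, and the IFIT genes lie between -0.27 (IFIT3) and 0.34 (IFIT1).

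The promoters of the members were examined for the ISRE. Since the list consists of interferon-stimulated genes, a high share with this element comes with the choice of the list. It is no result of these libraries. The ISRE core was searched as 2 copies of GAAA set 2 bases apart, which reads as TTTC on the other strand, in RefSeq promoters (GRCh38.p14, 250 bases before to 50 after a gene's start; other starts of a gene have windows of their own). Of the 42 members, 35 had a window, and 25 of these (71.4%) held at least 1 ISRE core, against 4.38% of the 27305 genes with a window. The core was present in regulated and in other members. It was found in 6 of 7 regulated members with a window (85.7%) and in 19 of 27 tested members that were not regulated (70.4%). The gamma-activated site, searched as TTC and GAA set 3 bases apart, which reads the same on both strands, was found in 10 of 35 members (28.6%), against 9.38% of genes. A match is a stretch of letters and not a measured binding site.

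The pieces below show the ISRE cores of regulated members, in capitals with 15 bases on either side, so that the element can be compared with that of members short of the thresholds. They lie at chr2:6877617-6877656, plus strand (RSAD2), chr1:78649756-78649795, plus strand (IFI44), chr15:88638932-88638971, plus strand (ISG20) and chr1:89065311-89065350, minus strand (GBP1), and each sequence is written 5′ to 3′ along its gene.
RSAD2: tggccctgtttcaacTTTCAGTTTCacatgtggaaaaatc
IFI44: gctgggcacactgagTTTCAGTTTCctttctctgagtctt
ISG20: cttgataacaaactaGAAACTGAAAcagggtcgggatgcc
GBP1: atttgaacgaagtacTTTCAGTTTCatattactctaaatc

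The next pieces come from members that did not pass the thresholds, at chr10:89392492-89392544, plus strand (IFIT1), chr1:1013369-1013414, plus strand (ISG15), chr11:320871-320927, minus strand (IFITM3) and chr7:93118091-93118130, minus strand (SAMD9). They are shown because they hold the same core, as 1 copy in SAMD9 and as pairs in IFIT1, ISG15 and IFITM3, where the pair of ISG15 overlaps.
IFIT1: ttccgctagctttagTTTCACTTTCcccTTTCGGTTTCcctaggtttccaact
ISG15: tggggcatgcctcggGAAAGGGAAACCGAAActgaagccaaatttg
IFITM3: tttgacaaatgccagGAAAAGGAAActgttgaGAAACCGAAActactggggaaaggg
SAMD9: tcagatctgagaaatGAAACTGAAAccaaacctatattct

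The window of IFI44L is given in full up to the start of the gene (chr1:78620198-78620447, plus strand), since a segment of 85 bases occurs in it a second time, 91 bases further on, and each copy carries the core in capitals.
IFI44L: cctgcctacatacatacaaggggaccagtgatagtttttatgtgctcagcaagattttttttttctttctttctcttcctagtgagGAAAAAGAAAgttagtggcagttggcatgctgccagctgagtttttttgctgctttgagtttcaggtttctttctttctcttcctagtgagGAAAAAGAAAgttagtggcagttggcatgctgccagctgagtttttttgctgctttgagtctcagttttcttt

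**Figure D2:**
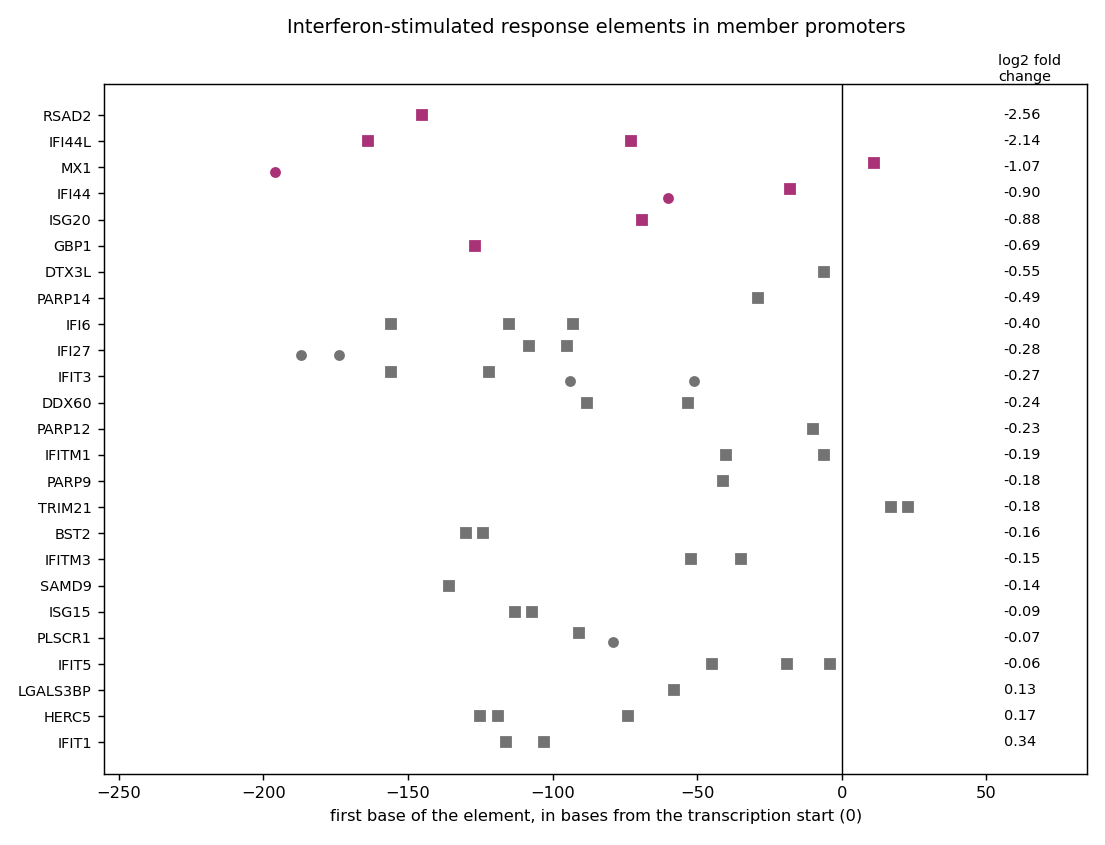
Each mark is the first base of an ISRE core, placed by its distance in bases from the transcription start (x axis), for the 25 members that hold one, ordered by log2 fold change (numbers at the right). Squares and circles are the first and a second window of the same gene, and regulated members are in purple; cores lie before the start in most members, among regulated and other members alike.

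RSAD2 encodes viperin, a radical SAM enzyme that makes a chain-terminating nucleotide. It had 77.5, 81.4 and 78.9 normalized counts in si-CTRL and 13.1, 14.5 and 10.7 in si-NEK2, in the order of the replicates, as for all values below. The groups were far apart, and each si-CTRL library was above all si-NEK2 libraries. The mean fell from 79.3 ± 1.96 to 12.7 ± 1.92 (SD, n = 3), with a log2 fold change of -2.56 ± 0.22 (SE, adjusted p = 5.98e-05). Adjusted p-values here and in what follows are those of limma, after Benjamini and Hochberg, over the 18717 genes. By fold change this was the 78th largest decrease among the 18717 genes. RSAD2 was a rare transcript, with between 62 and 84 reads in si-CTRL and between 10 and 16 in si-NEK2. CMPK2, a mitochondrial nucleotide kinase that lies 11.0 kb from RSAD2 on chromosome 2, had 9, 0 and 11 reads in si-CTRL and 2, 0 and 1 in si-NEK2, which is too few for a comparison at this depth.

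IFI44L and IFI44, neighbours with a gap of 3.65 kb on chromosome 1, encode related cytoplasmic proteins. IFI44L (GSHG0000653, chromosome 1, 79086067 to 79111828, hg19) had 791, 627 and 1029.6 normalized counts in si-CTRL and 169, 201 and 173 in si-NEK2. It fell from 816 ± 203 to 181 ± 17.4 (SD, n = 3), with a log2 fold change of -2.14 ± 0.17 (SE, adjusted p = 4.25e-05), and 22.1% of the transcript remained. IFI44 had 2855, 1924 and 2659.9 normalized counts in si-CTRL and 1216, 1299 and 1424 in si-NEK2, and its log2 fold change was -0.90 ± 0.14 (SE, adjusted p = 0.00117). Both genes were lower in all si-NEK2 libraries than in any si-CTRL library, with the lowest si-CTRL value in replicate 2.

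MX1 and MX2 encode dynamin-like GTPases, of which MX1 acts against influenza and other RNA viruses and MX2 against lentiviruses. Their genes lie next to each other on chromosome 21 with a gap of 11.1 kb. MX1 (GSHG0019500, chromosome 21, 42792442 to 42831140, hg19) had 6403, 4580.2 and 6565 normalized counts in si-CTRL and 2683, 2513 and 3059.9 in si-NEK2, and its log2 fold change was -1.07 ± 0.14 (SE, adjusted p = 0.000424). MX2 (GSHG0019499, chromosome 21, 42733950 to 42781317, hg19) had 965, 670.2 and 1042 normalized counts in si-CTRL and 311, 311 and 361 in si-NEK2, and its log2 fold change was -1.42 ± 0.16 (SE, adjusted p = 0.000228). As for IFI44L and IFI44, replicate 2 was the lowest of the si-CTRL libraries for both, and it still lay above all si-NEK2 libraries.

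The guanylate-binding proteins GBP1 and GBP2 are GTPases best known as targets of interferon gamma, and they moved in opposite directions. GBP1 had 3809, 2790.4 and 3003 normalized counts in si-CTRL and 1864, 1964 and 2080.5 in si-NEK2, with a log2 fold change of -0.69 ± 0.11 (SE, adjusted p = 0.00152). Without si-CTRL replicate 1, its highest library, the log2 fold change of GBP1 was -0.56, under a fold change of 1.5. The row shared by GBP2 and GBP7 had 98.7, 134 and 115 normalized counts in si-CTRL and 236, 239 and 243 in si-NEK2. It rose from 116 ± 17.5 to 239 ± 3.82 (SD, n = 3), with a log2 fold change of 1.05 ± 0.14 (SE, adjusted p = 0.000526), and the groups did not overlap. GBP genes are close paralogs, and how reads common to them were counted is not given in the sources used here, so that the values of both rows are uncertain.

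**Figure D3:**
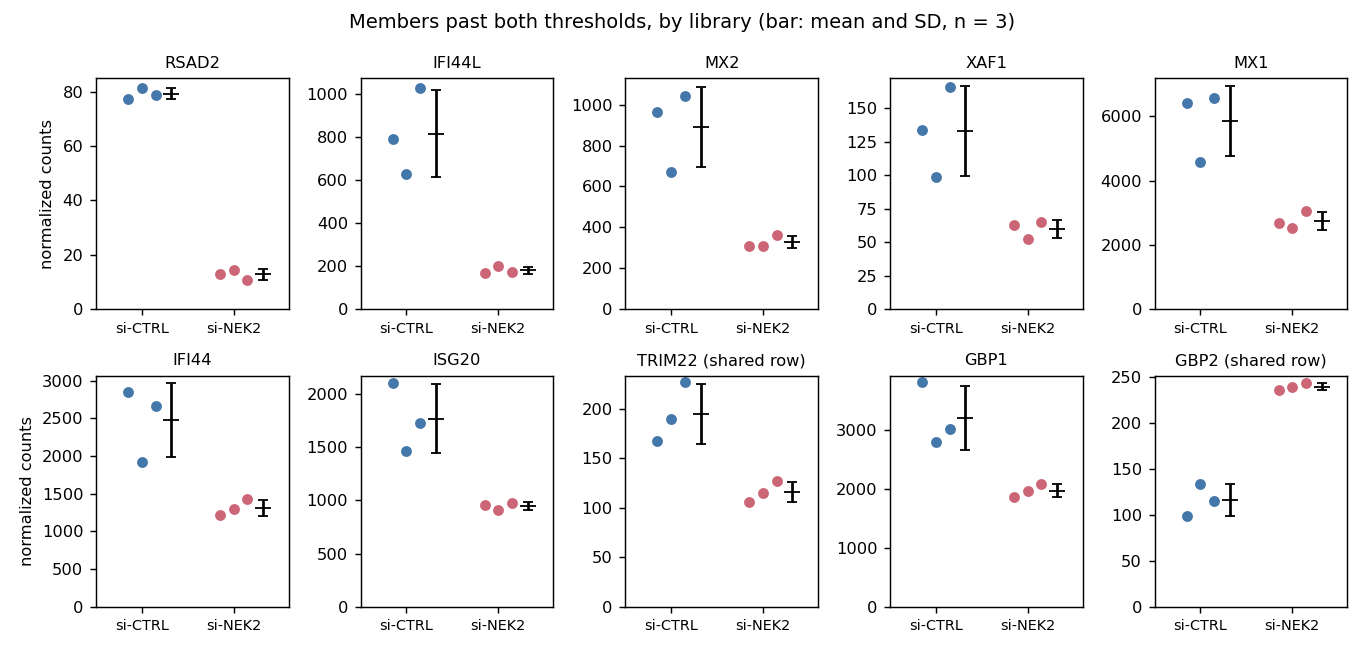
Normalized counts (y axes, from 0) of the 10 regulated members are shown for each si-CTRL library (blue) and each si-NEK2 library (red), with the mean and SD of each group (n = 3) in black. The groups do not overlap in any panel, and the si-CTRL libraries are more spread than the si-NEK2 libraries in every panel, though by little for RSAD2 (SDs of 1.96 and 1.92).

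ISG20, a 3′ to 5′ exonuclease that degrades viral RNA, had 2106, 1467 and 1726 normalized counts in si-CTRL and 953, 910.1 and 976 in si-NEK2. Its log2 fold change was -0.88 ± 0.12 (SE, adjusted p = 0.000635). XAF1, which antagonizes the caspase inhibitor XIAP, had 134, 98.8 and 166 normalized counts in si-CTRL and 63.0, 52.4 and 65.1 in si-NEK2, with a log2 fold change of -1.11 ± 0.21 (SE, adjusted p = 0.00326). The row shared by TRIM22, a RING ubiquitin ligase, and OR56B1 had 167, 189.8 and 227 normalized counts in si-CTRL and 106, 115 and 127 in si-NEK2. It fell from 195 ± 30.2 to 116 ± 10.3 (SD, n = 3), a log2 fold change of -0.74 ± 0.15 (SE, adjusted p = 0.00491). With quantile scaling the value for TRIM22 was -0.56, short of the fold threshold. In these 3 genes too, every si-NEK2 library was below every si-CTRL library.

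The factors that switch these genes on did not pass the thresholds. STAT2 had 789, 654 and 761 normalized counts in si-CTRL and 760.2, 851 and 781 in si-NEK2, and the groups overlapped (log2 fold change 0.12 ± 0.10, SE, adjusted p = 0.361). The row shared by IRF9 and RNF31, a subunit of the linear ubiquitin ligase, had 2667, 2763 and 2701 normalized counts in si-CTRL and 3163, 2953 and 3267 in si-NEK2, higher in all si-NEK2 libraries but by less than a fold change of 1.5 (0.21 ± 0.068, SE, adjusted p = 0.037). The adjusted p of IRF9 was above 0.05 in 11 of 17 alternative fits, at most 0.406. IRF1, a factor induced mainly by interferon gamma and NF-kB, had 1169.8, 1008 and 926 normalized counts in si-CTRL and 856, 922 and 813 in si-NEK2. Its libraries were lower in si-NEK2 without overlap, with an unadjusted limma p of 0.0377, but by less than a fold change of 1.5 (-0.26 ± 0.10, SE, adjusted p = 0.0782).

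None of the 4 IFIT genes, whose proteins bind foreign RNA at its 5′ end or build on those that do, passed both thresholds. IFIT1 had 5604, 4644 and 6656 normalized counts in si-CTRL and 6669, 7229 and 7347 in si-NEK2, and all si-NEK2 libraries were above the si-CTRL libraries (log2 fold change 0.34 ± 0.12, SE, adjusted p = 0.0448). The adjusted p of IFIT1 was above 0.05 in 10 of 17 alternative fits, at most 0.169. IFIT3, which stabilizes IFIT1, had 11925, 9636 and 12122 normalized counts in si-CTRL and 8794, 9448 and 9486 in si-NEK2, and all si-NEK2 libraries were below (-0.27 ± 0.094, SE, adjusted p = 0.0423). Its adjusted p was above 0.05 in 8 of 17 alternative fits, at most 0.14. IFIT2 (log2 fold change 0.10, adjusted p = 0.437) and IFIT5 (-0.060, adjusted p = 0.665) overlapped between the groups.

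The 4 genes form a cluster on chromosome 10, and the ratio of IFIT2 over IFIT3 was steadier than the level of either gene. The log2 ratio of IFIT2 over IFIT3, taken within each library, was 0.13, 0.11 and 0.12 in si-CTRL and 0.48, 0.50 and 0.50 in si-NEK2. The ratio thus shifted by 0.37, with SDs of 0.0073 and 0.010 (n = 3). Neither gene alone was as steady, since IFIT2 had 13041, 10432 and 13188 normalized counts in si-CTRL and 12302, 13393 and 13410.2 in si-NEK2, with replicate 2 low in si-CTRL as for IFIT3. For IFIT1 over IFIT3 the shift was 0.62, with SDs of 0.12 and 0.015 (n = 3).

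Such ratios were compared for all 10 pairs of tested members that follow each other within 100 kb, an analysis chosen after values had been seen. The groups did not overlap in 8 pairs, for which the exact permutation test (two-sided) gave p = 0.1, the smallest that 3 against 3 libraries can give (0.125 after Benjamini-Hochberg adjustment over the 10 pairs). They overlapped for IFITM1 over IFITM2 (a shift of -0.10, exact p = 0.7) and IFITM1 over IFITM3 (-0.040, exact p = 0.8). IFI44L shifted against IFI44 by -1.24, MX2 against MX1 by -0.35, and GBP2 against GBP1 by 1.74 on the log2 scale. No p under 0.05 can be reached with this number of libraries. For single genes the groups did not overlap in 55.0% of all genes tested, and the share over all neighbouring pairs was not computed. Some members stand in more than 1 pair, so that the pairs are not independent.

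**Figure D4:**
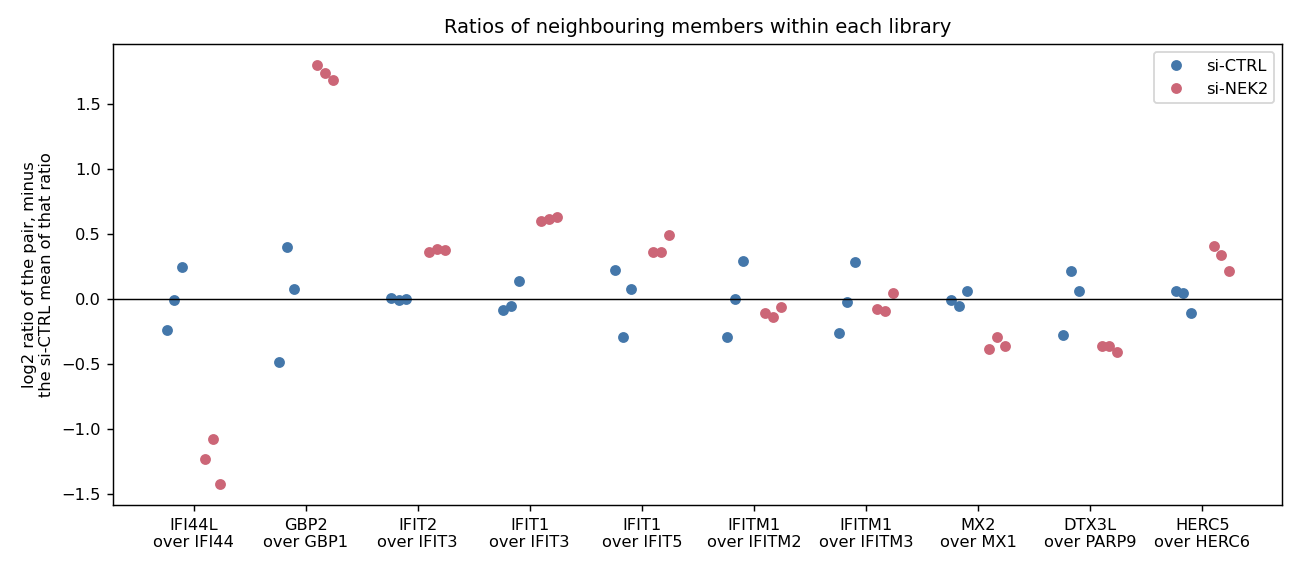
The y axis gives the log2 ratio of 2 neighbouring members within a library, minus the mean of that ratio in si-CTRL, for each of 3 si-CTRL (blue) and 3 si-NEK2 (red) libraries. The groups are apart in 8 of 10 pairs and overlap in both pairs with IFITM1, and the ratio of IFIT2 over IFIT3 varies least within the groups. The share of such pairs over all genes was not computed.

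DTX3L and PARP9 form a ubiquitin ligase and ADP-ribosylating complex, and their genes are read in opposite directions from 1 promoter on chromosome 3. The window of each gene holds the same ISRE core, at chromosome 3, 122564332 to 122564341 (GRCh38.p14). It is shown along DTX3L, from chr3:122564317-122564356, plus strand.
DTX3L: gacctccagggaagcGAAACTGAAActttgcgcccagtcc

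DTX3L had 3631, 3827 and 4275 normalized counts in si-CTRL and 2517, 2761 and 2700.4 in si-NEK2, without overlap. Its log2 fold change was -0.55 ± 0.081 (SE, adjusted p = 0.000771), just under a fold change of 1.5, and it became regulated at -0.61 without si-CTRL replicate 1, and under 3 other scalings. PARP9 had 827, 621 and 771 normalized counts in si-CTRL and 608, 669 and 673 in si-NEK2, and here the groups overlapped (-0.18 ± 0.12, SE, adjusted p = 0.263). Within a library, the ratio of DTX3L over PARP9 was lower in all si-NEK2 libraries, by 0.38 on the log2 scale. PARP14, a mono-ADP-ribosyltransferase from the same stretch of chromosome 3, had 2052, 1874 and 2159.9 normalized counts in si-CTRL and 1357, 1537 and 1425 in si-NEK2, without overlap and under the fold threshold (-0.49 ± 0.084, SE, adjusted p = 0.00174). PARP12, which binds RNA and is found at the Golgi, overlapped between the groups (-0.23, adjusted p = 0.141).

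ISG15 is a ubiquitin-like protein, which UBE2L6 and HERC5 attach to target proteins and USP18 removes. None of the 5 genes of this system passed both thresholds. USP18, which also shuts off the interferon receptor, had 554, 499 and 669 normalized counts in si-CTRL and 422, 416 and 404 in si-NEK2 and came nearest (-0.46 ± 0.12, SE, adjusted p = 0.0134, above 0.05 in 1 of 17 alternative fits at 0.0569). UBE2L6 had 2532, 2481 and 2427 normalized counts in si-CTRL and 2135, 2131 and 2047 in si-NEK2, a small difference with little spread (-0.24 ± 0.065, SE, adjusted p = 0.017, above 0.05 in 3 of 17 alternative fits and at most 0.0704). HERC5 (0.17, adjusted p = 0.117) and HERC6 (-0.15, adjusted p = 0.368) missed the threshold for the adjusted p.

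ISG15 itself had 3141, 5013 and 5965 normalized counts in si-CTRL and 5205, 4678 and 3169.8 in si-NEK2, which spread more within the groups than between them (-0.094 ± 0.24, SE, adjusted p = 0.784). Within each group its libraries ranked as those of IFI6 and IFI27, small membrane proteins of mitochondria and the endoplasmic reticulum. IFI6 had 2119.7, 3612 and 6809 normalized counts in si-CTRL and 3627, 3119.7 and 2019.7 in si-NEK2, and IFI27 had 172, 299 and 429.7 normalized counts in si-CTRL and 251, 239 and 205 in si-NEK2. All 3 were lowest in replicate 1 and highest in replicate 3 of si-CTRL, and highest in replicate 1 and lowest in replicate 3 of si-NEK2. Their within-group SDs on the log2 scale were 0.67 (IFI6), 0.48 (IFI27) and 0.43 (ISG15), beside a median of 0.15 over the members and 0.16 over all genes tested. The log2 fold changes of IFI6 (-0.40, adjusted p = 0.43) and IFI27 (-0.28, adjusted p = 0.454) were decided by single libraries. Without si-CTRL replicate 1 they were -0.81 and -0.63, past both thresholds, and without si-CTRL replicate 3 they were 0.036 and 0.022.

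The 3 transcripts are short, with 0.841 kb (IFI6), 0.725 kb (IFI27) and 0.787 kb (ISG15) in GENCODE v29. The genes in the lowest quartile of transcript length had median deviations from the group mean of -0.0498, 0.0010 and 0.0553 in si-CTRL and of 0.0166, 0.0075 and -0.0146 in si-NEK2, in the same order of libraries but far smaller. The genes in the highest quartile of GC content had medians of 0.0124, -0.0203 and 0.0064 in si-CTRL. In si-NEK2 these were 0.0697, -0.0104 and -0.0463, so that the order of libraries was the same in si-NEK2 only. The parts of transcript length and of GC content in this spread were not tested. The other members under 1 kb differed among themselves. IFITM1 (0.855 kb) had a within-group SD of 0.21 and in si-CTRL the same order of libraries, though not in si-NEK2, and IFITM2 (0.892 kb) and IFITM3 (0.808 kb) had SDs of 0.059 and 0.057. BST2 (1.019 kb, SD 0.33) had the same order of libraries in si-CTRL and the reverse order in si-NEK2.

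**Figure D5:**
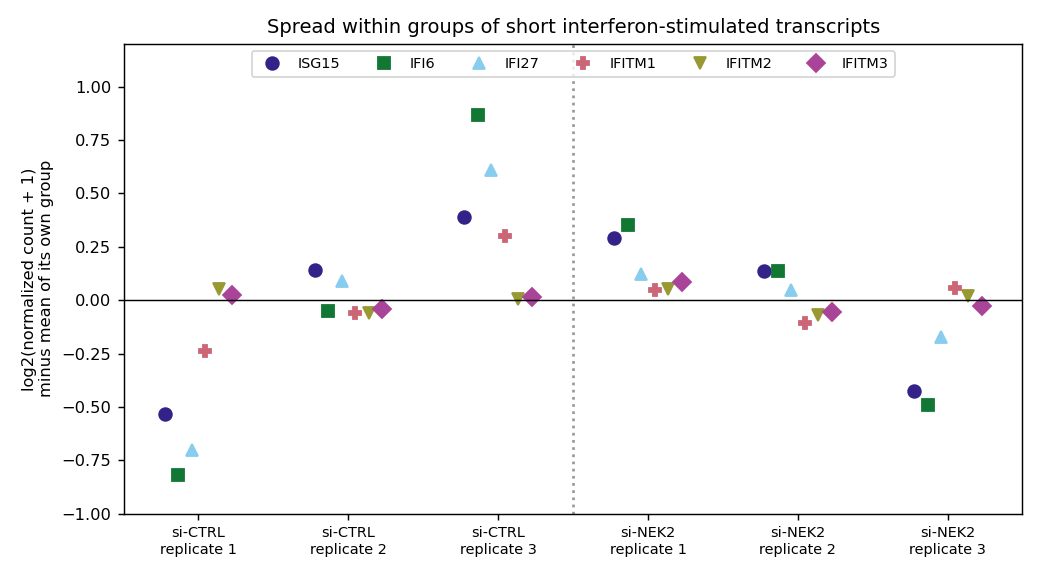
Each mark is the log2(normalized count + 1) of a gene in 1 library minus the mean of the 3 libraries of its group (y axis), for the 6 members with transcripts under 1 kb. ISG15, IFI6 and IFI27 run in parallel, low in si-CTRL replicate 1 and si-NEK2 replicate 3, IFITM1 follows them in si-CTRL only, and IFITM2 and IFITM3 stay near 0.

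The IFITM proteins stop viruses from fusing with endosomal membranes, and IFITM3 and IFITM2 were the most abundant of the ranked members. Per kb of the longest coding transcript (GENCODE v29), IFITM3 had 15985 ± 385 and IFITM2 10498 ± 405 normalized counts in si-CTRL (SD, n = 3), the 1st and the 2nd level of the 38 tested members with a row of their own. ISG15 (5980 ± 1826) and IFI6 (4970 ± 2848) came next and did not differ beyond their spread. RSAD2 was last, at 22.5 ± 0.556. IFITM3 had 13136, 12560.0 and 13052 normalized counts in si-CTRL and 12347, 11223 and 11418 in si-NEK2, lower in all si-NEK2 libraries, but by little and with an adjusted p above 0.05 (-0.15 ± 0.063, SE, adjusted p = 0.0888). IFITM1 (-0.19, adjusted p = 0.269) and IFITM2 (-0.087, adjusted p = 0.306) overlapped between the groups. These genes are close paralogs and may share reads.

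The other members encode proteins of several kinds. OASL, which enhances sensing of RNA by RIG-I and is the 1 member of the OAS family described here, had 3753, 3128 and 3644 normalized counts in si-CTRL and 2674, 2821 and 2962 in si-NEK2, lower without overlap (-0.31 ± 0.086, SE, adjusted p = 0.0177, above 0.05 in 4 of 17 alternative fits and at most 0.0741). Overlapping groups were found for BST2 (tetherin, which holds virions at the cell surface), PLSCR1, LGALS3BP, SAMHD1 (which hydrolyses dNTPs), DDX60, SP100 (a component of nuclear bodies), SAMD9 and IFI35. Their log2 fold changes ran from -0.24 (DDX60) to 0.13 (LGALS3BP), with adjusted p-values of at least 0.17. TRIM21, the cytosolic antibody receptor, was lower in all si-NEK2 libraries, and the adjusted p missed the threshold (-0.18 ± 0.083, SE, adjusted p = 0.12).

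The ligands, receptors and signal transducers of the interferon system were set beside the members, as a list of 30 genes. Of its 18 distinct rows that were tested (IFNAR2 and IL10RB share one), 1 was regulated (5.56%, against 22.5% of all genes). This was SOCS3, an inhibitor of JAK kinases, which had 2002, 1951 and 2046 normalized counts in si-CTRL and 1130.1, 911 and 1109.6 in si-NEK2 and a log2 fold change of -0.93 ± 0.096 (SE, adjusted p = 0.00013). The receptor chain IFNAR1 (-0.042, adjusted p = 0.638) and the kinase TYK2 (-0.062, adjusted p = 0.47) overlapped between the groups. The interferon gamma receptor chains did not overlap, with IFNGR1 higher (0.43, adjusted p = 0.00463) and IFNGR2 lower (-0.52, adjusted p = 0.00294). Both were under a fold change of 1.5, which IFNGR2 reached with upper quartile (-0.585) and equal total scaling (-0.65). An adjusted p of at most 0.05 was reached by 7 of the 18 rows (38.9%), 4 lower and 3 higher, against 43.1% of all genes. JAK1 was higher (0.38, adjusted p = 0.00273) and STAT3 lower (-0.48, adjusted p = 0.000852), both under a fold change of 1.5. Of the interferons, 1 was tested. IFNE, interferon epsilon, had 199, 223 and 219 normalized counts in si-CTRL and 124, 155 and 160.0 in si-NEK2, lower without overlap and under a fold change of 1.5 (-0.55 ± 0.14, SE, adjusted p = 0.0128), and it was past both thresholds at -0.60, -0.59 and -0.61 without si-CTRL replicate 1, si-NEK2 replicate 2 or si-NEK2 replicate 3 and at -0.61 and -0.67 with upper quartile and equal total scaling. IFNB1 had between 2 and 8 reads per library and IFNL1 between 4 and 10, too few for a comparison, and 9 genes of the list stood at 0 reads throughout. A 0 in a single library leaves room for a level of up to 3 reads there, and a 0 in all libraries for a lower one.

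A list of 48 further interferon-stimulated genes gave 44 tested genes, of which 9 were regulated (20.5%), 7 downward (15.9%) and 2 upward (4.55%), against 22.5%, 14.3% and 8.23% of all genes. The median log2 fold change was -0.22, against 0.012 over all genes. An adjusted p of at most 0.05 was reached by 26 genes (59.1%), against 43.1% of all genes. Of these, 17 (38.6%) were lower and 9 (20.5%) higher, against 21.3% and 21.8% of all genes, so that the share of increases was near that of all genes. SAMD9L, a paralog and neighbour of SAMD9, had 3321, 2669 and 3108 normalized counts in si-CTRL and 1114, 1326 and 1379.5 in si-NEK2 and fell with a log2 fold change of -1.25 ± 0.11 (SE, adjusted p = 6.23e-05), whereas SAMD9 had 25507, 20344 and 23442 normalized counts in si-CTRL and 19709, 21169 and 21905 in si-NEK2 (-0.14 ± 0.089, SE, adjusted p = 0.25). EPSTI1 (-0.86), SP110 (-0.65) and HELZ2 (-0.60) fell as well, with adjusted p-values between 0.000391 and 0.00653. Without si-CTRL replicate 1 SP110 (-0.55), and without si-CTRL replicate 3 HELZ2 (-0.55), was under the fold threshold. TNFSF10, the death ligand TRAIL, rose (0.82, adjusted p = 0.0229), and so did the row shared by IFI30, a lysosomal thiol reductase, and PIK3R2 (0.75, adjusted p = 0.000396). The regulated genes of this list with a mean under 50 normalized counts are not named here, and they fell by more than SAMD9L.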

How the data were processed

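RNA-seq libraries of MDA-MB-231 cells (3 si-CTRL, 3 si-NEK2) were made from polyA-enriched RNA, grouped by the titles of the sample records. The authors deposited a signal per gene and library, that is read counts scaled by DESeq2 size factors, for FAST DB genes on hg19. The submitters' processing notes list STAR 2.4.0, SAMtools, Picard and FastQC; the counter and its use of strand are not given in the sources used here, so that reads of overlapping or antisense genes cannot be told apart. All values (100%) were whole multiples of 1 read within a tolerance of 0.02, which gave back the reads (52625492 to 87454509 per library). A gene at 0 in a single library may have a level of up to 3 reads there, a limit that covers counting error only.

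The 18717 genes that averaged 10 or more normalized counts were fitted with limma 3.58.1 (R 4.3.3; lmFit, eBayes with trend) on log2(value + 1), a scale that understates changes of low genes, and p-values were adjusted by Benjamini-Hochberg over all of them. Alternatives were edgeR 4.0.16 and DESeq2 1.42.0 on the recovered reads, pseudocounts of 0.1 and 5, no filter or a mean of 50 or more, scaling to equal totals, to upper quartiles or by quantiles, eBayes without trend, a replicate block, the omission of each library in turn, adjusted p-values and a fold change of at least 2. On counts simulated for the comparison of si-NEK2 with si-CTRL over 18717 genes, each tool called 100% of the 200 changed genes, and limma called 0.632% of the others. The changed genes had a mean of 50 or more and differed by at least 2-fold, and all genes were given the same dispersion. How often smaller differences, rarer genes or genes with more spread would be called was thus not examined. All members may be named, with library values for regulated ones and for those whose role is read first. Of the other lists, regulated genes with a mean of at least 50, at most 8, may be named. Beside them stand IFNAR1, IFNGR1, IFNGR2, TYK2, JAK1, STAT3, IFNE, IFNB1 and IFNL1, which were chosen after their values were seen. The members and lists were chosen with earlier results of these data known. Promoters are RefSeq windows (GRCh38.p14), for 35 of 42 members by symbol; gene coordinates are those of the table (hg19).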

Additional observations from a re-analysis of the deposited data

How the results depend on the processing

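Of the 10 regulated members, 8 kept their call and direction in every alternative fit that included them (17, or 16 for RSAD2, which a mean minimum of 50 removes). The exceptions were GBP1 (without si-CTRL replicate 1) and TRIM22 (quantile scaling), each at -0.56. The count of 10 regulated members (9 lower, 1 higher) lay between 9 and 13 over these fits, was from 10 to 12 with single libraries omitted, and fell to 6 (5 lower) with a fold change of at least 2, which removes genes by construction. That threshold left 1637 of 4213 regulated genes over all genes tested, 4 of 9 among the further interferon-stimulated genes and 0 among ligands, receptors and signal transducers. With equal total scaling, which moved the median of all genes to -0.11, the median of the members went from -0.19 to -0.32, 12 members were regulated downward, among them USP18 (-0.59), PARP14 (-0.62) and DTX3L (-0.68), and 14 further interferon-stimulated genes and 4 ligands, receptors and signal transducers were regulated. With upper quartile scaling the last count was 3. With single libraries omitted it ranged from 1 to 2. IFNE was added without si-CTRL replicate 1 (-0.60), si-NEK2 replicate 2 (-0.59) or si-NEK2 replicate 3 (-0.61), and IFNGR2 without si-CTRL replicate 3 (-0.585). DTX3L was regulated at -0.62 with upper quartile and with quantile scaling.

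Some members that were not regulated changed sign. With equal total scaling these were IFIT2 (-0.0281), STAT2 (-0.0067), LGALS3BP (-0.0032), SAMHD1 (-0.103) and IFI35 (-0.0447), with quantile scaling IFIT2 (-0.0388), BST2 (0.0018), HERC6 (0.0070) and SAMHD1 (-0.0686), and with upper quartile scaling SAMHD1 (-0.0410). With single libraries omitted the log2 fold change went from -0.0098 to 0.16 for IFIT2, -0.17 to 0.0308 for IFIT5, -0.37 to 0.0027 for BST2, -0.14 to 0.0211 for PLSCR1, -0.81 to 0.0365 for IFI6, -0.63 to 0.0218 for IFI27 and -0.36 to 0.12 for ISG15. The cause was not tested.

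Replicate numbers did not pair the libraries, since the deviations of same-numbered libraries from their group means had correlations of -0.091, 0.047 and -0.15 over genes. With the replicate number as a block the adjusted p of IFIT3 was 0.0703, of IRF9 0.0898 and of UBE2L6 0.0514, and 10 members and 4084 genes in all were regulated.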
